A study of Mus musculus with 16 samples.

Results

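Chromatin accessibility was compared between differentiating C2C12iMyoD1 myoblasts that received doxycycline (DM +dox) and differentiating myoblasts that received vehicle (DM no dox), to ask which open regions changed in strength, width or presence when MyoD1 was raised at the onset of differentiation. The comparison takes 6 of the 16 ATAC-seq libraries of the series, replicates 2, 3 and 4 of each group. The first replicate of both groups was left out, as in the study. Another 8 libraries come from proliferating cells. C2C12 is a mouse skeletal muscle myoblast line, and C2C12iMyoD1 is a polyclonal population of it with endogenous MyoD1 plus a Halo-MyoD1 transgene behind the doxycycline-responsive TRE3GS promoter, which every group carries. Both DM groups were seeded at 300000 cells and spent 24 h in serum starvation, and dox or vehicle was given for the same 24 h. The proliferating (GM) groups had 24 h of dox or vehicle in growth medium after seeding at 75000 cells. By the study's account dox raises MyoD1 in a fraction of the nuclei, and in pooled cells a stronger peak from more open cells and one from more open chromatin per cell cannot be told apart. The replicates are labelled biological.

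MyoD1 is a basic helix-loop-helix factor that commits cells to the muscle lineage. It binds DNA as a dimer with E proteins (Tcf3, Tcf4, Tcf12) at E-boxes, hexamers of the form CANNTG, with CAGCTG and CAGGTG among the sequences it is best known to bind. In muscle cells such sites often lie in distal enhancers near sites for TEAD, MEF2, RUNX and AP-1 factors. ATAC-seq reports open chromatin as peaks of transposase cuts and does not itself show which factor is bound.

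Each library had its own list of peaks, with 46241 to 51340 peaks in DM +dox and 23690 to 40599 in DM no dox. Background coverage, worked back from each peak's enrichment and p-value, was 0.732 to 1.13 fragments per base with dox and 0.511 to 0.901 without, so the +dox lists were longer and came on the whole from deeper libraries. Within a list peaks were therefore ranked by the −log10 p of column 8, with rank 1 the strongest. The 6 lists joined into 64142 regions, of which 18106 had a peak in every list and were ranked among themselves in every library. A further comparison used the 14710 strongest peaks of each list. As a check of cell identity, promoters (within 1 kb of a start site) of 10 myoblast markers were scored. Between 9 and 10 had a peak in the +dox lists and between 5 and 7 in the no dox lists, against 4 to 6 and 3 to 5 in lists of equal length. Myod1, Des, Chrna1 and Cdh2 were among those open in all 6 libraries, while Myf5, the myogenic factor related to MyoD1, and the integrin Itga7 had a promoter peak in 3 of 3 +dox libraries and 0 of 3 no dox libraries. This is presence in the full lists, which were longer with dox. A Myf5 region 0.386 kb from the start site had only 6, 6 and 11 fragments at its summit with dox. Of the 4 to 6 markers of each of 6 other cell types, 0 to 2 had a promoter peak in any list. Adipoq, Ptprc, Cdh5, Epcam and Neurod1 had none, and Pparg and Syt1 had one in all 6. Bglap, Col2a1 and Krt8, markers of other cell types, had one in 3 of 3 +dox and 1 of 3 no dox libraries. The myoblast markers Cdh15 and Rapsn had the same counts.

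The sequences around the peak centres (201 bp, mm10, plus strand) of some of the regions of smallest p are shown for the motifs they hold. They were picked to show these motifs and do not stand for all such regions, of which several hold neither an E-box of this kind nor an AP-1 site. The first 3 come from regions that ranked higher with dox, in an intron of Tnrc6b (chr15:80765465-80765665), between genes near Ube2d1 (chr10:71292407-71292607) and between genes near Lamtor5 (chr3:107266960-107267160). The last 2 come from regions that ranked lower, between genes near Ccdc130 (chr8:84336541-84336741) and in an intron of Sema5a (chr15:32383132-32383332). Capitals mark the E-boxes CAGCTG and CAGGTG (read as CACCTG on the other strand) and the AP-1 sites TGACTCA and TGAGTCA.
Tnrc6b: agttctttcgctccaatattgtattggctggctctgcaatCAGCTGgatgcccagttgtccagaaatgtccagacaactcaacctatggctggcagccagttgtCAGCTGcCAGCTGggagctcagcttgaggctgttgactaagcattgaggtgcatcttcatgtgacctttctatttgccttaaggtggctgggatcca
Ube2d1: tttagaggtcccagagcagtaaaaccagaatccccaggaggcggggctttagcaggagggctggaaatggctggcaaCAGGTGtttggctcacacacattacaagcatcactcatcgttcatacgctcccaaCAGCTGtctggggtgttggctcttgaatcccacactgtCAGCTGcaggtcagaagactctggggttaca
Lamtor5: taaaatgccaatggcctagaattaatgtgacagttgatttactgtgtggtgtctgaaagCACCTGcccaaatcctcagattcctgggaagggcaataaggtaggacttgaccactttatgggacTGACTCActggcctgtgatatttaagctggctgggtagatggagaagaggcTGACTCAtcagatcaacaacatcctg
Ccdc130: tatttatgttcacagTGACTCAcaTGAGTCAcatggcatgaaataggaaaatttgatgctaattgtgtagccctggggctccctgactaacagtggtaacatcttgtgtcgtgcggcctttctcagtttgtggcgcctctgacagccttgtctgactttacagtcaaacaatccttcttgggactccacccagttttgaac
Sema5a: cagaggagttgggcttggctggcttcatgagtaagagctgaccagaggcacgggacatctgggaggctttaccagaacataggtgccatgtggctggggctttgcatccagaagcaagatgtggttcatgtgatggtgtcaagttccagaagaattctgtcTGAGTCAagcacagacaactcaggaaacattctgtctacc
The Tnrc6b window holds 3 copies of CAGCTG and no AP-1 site. The Ube2d1 window holds 2 copies of CAGCTG and 1 of CAGGTG. The Lamtor5 window holds 1 CAGGTG beside 2 AP-1 sites. In the lower regions the Ccdc130 window holds 2 AP-1 sites and the Sema5a window 1, and neither holds CAGCTG or CAGGTG.

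With dox, a small share of regions ranked differently in both directions, and most of them were distal. Ranks were turned into normal scores, in which 1 unit is 1 standard deviation of the regions of a library and a positive difference means a relatively stronger peak with dox. With limma, 0 of 18106 regions (0%) had an adjusted p under 0.05. The lowest adjusted p was 0.061, and 1365 regions (7.54%) had an unadjusted p under 0.05, 595 of them higher. Libraries with the same replicate number deviated together for numbers 2 and 4 (r = 0.52 and 0.51) and little for number 3 (r = 0.17). The labels do not say what a number shares. With the replicate number as a block limma called 262 regions higher (1.45%) and 379 lower (2.09%). Of the called regions, 257 of the 262 and 375 of the 379 kept their direction in all 3 pairs of equal number. The fit with the block favours regions whose pairs agree, so this does not test the calls. The groups did not overlap in 199 of the higher and 287 of the lower regions, where among all tested regions 1078 (5.95%) were higher and 1192 (6.58%) lower without overlap. These calls used the spread shared across regions, since 3 pairs leave 2 residual degrees of freedom against 78.6 from the prior. When the prior did not follow mean strength, 131 higher and 249 lower regions were called.

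The higher regions had median ranks of 5407, 7565 and 7656 in DM +dox replicates 2, 3 and 4 and of 12718, 14852 and 12711 in DM no dox. The lower regions had median ranks of 13968, 14080 and 14715 with dox and of 6198, 5542 and 8698 without. The median difference was 1.03 normal-score units at higher and −1.09 at lower regions, against 0.02 over all tested regions. Within number 2 the medians were 1.07 and −1.10, within number 3 they were 1.25 and −1.30, and within number 4 they were 0.76 and −0.88. Promoters made up 47.9% of the tested regions, 21.4% of the higher and 9.23% of the lower ones. By annotation most called regions were intronic (143 higher, 194 lower) or intergenic (94 higher, 170 lower), and the called regions lay at a median of 6.93 kb (higher) and 9.94 kb (lower) from a start site. At the edge of the threshold, a region nearest Chpf with a difference of −0.74 had an adjusted p of 0.05 and was the last one called, and a region nearest Hspa8 with −1.17 was the first one not called (adjusted p = 0.0504, limma with the block).

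**Figure D1:**
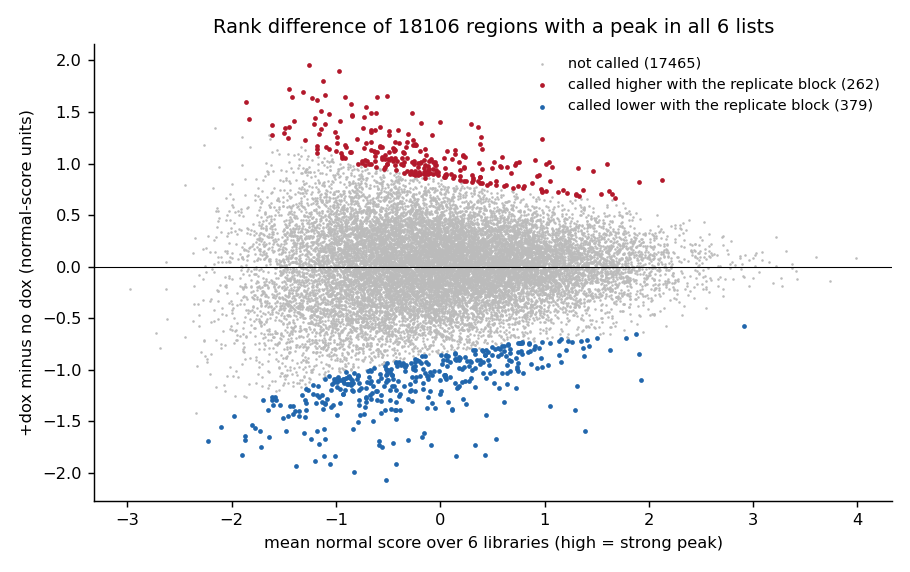
Difference in normal score between DM +dox and DM no dox (vertical axis) against the mean normal score over 6 libraries (horizontal axis) for each of 18106 regions, with the 262 regions called higher (red) and the 379 called lower (blue) by limma with the replicate block. The median difference is 1.03 for the higher and −1.09 for the lower regions, against 0.02 over all regions.

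The regions of smallest p are given by the protein-coding gene with the nearest start site, which names a place and not a target. All 20 missed the threshold without the block (limma adjusted p from 0.061 to 0.237 for all but Tbc1d7, at 0.247) and passed it with the block. In all 20 the groups did not overlap, which the choice by smallest p favours. Among all tested regions 5.95% were higher and 6.58% lower without overlap. The region in Tnrc6b, a gene of microRNA-guided silencing, ranked 10488, 8555 and 13832 with dox and 17750, 18008 and 17798 without, a difference of 1.96 (SE 0.40, adjusted p = 0.1, with the block 0.000196). At its summit 72, 50 and 41 fragments were recovered with dox and 9, 6 and 15 without, before any correction for depth. The region near Ube2d1, which encodes a ubiquitin-conjugating enzyme, ranked 6605, 9706 and 6354 with dox and 16616, 17457 and 15702 without (difference 1.65, SE 0.35, block adjusted p = 0.000196). Both regions were thus weaker than the median region (rank 9053) in every no dox library, and with dox they lay on either side of it.

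The region near Lamtor5, a subunit of the lysosomal Ragulator complex, ranked 3084, 1586 and 4705 with dox and 10220, 14045 and 11014 without (difference 1.38, SE 0.30, block adjusted p = 0.00026). A region 63.5 kb from Syf2, which encodes a splicing factor, moved from 11270, 10126 and 10300 to 2818, 2073 and 4285 (difference 1.19). A region in the first part of Cpt1a, the gene of the mitochondrial fatty acid import enzyme, lay 12 kb from its start site and ranked 5812, 10400 and 12840 with dox and 16980, 17900 and 16644 without (difference 1.65). The rest of the 10 higher regions lay near Cfc1, Adra1b, Zfp661, Ntng2 and Tbc1d7, with differences of 1.49 (Ntng2) or more. The Cfc1 window is a run of gga and gca units with none of the 30 motifs searched. Of the 10 higher regions, those near Tnrc6b, Ube2d1 and Syf2 held CAGCTG and those near Ube2d1, Lamtor5 and Ntng2 held CAGGTG.

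Of the 10 regions of smallest p that ranked lower, 8 ranked above the median region (rank 9053) in all 3 no dox libraries, and those near Cops8 and Cnbd1 did not. The one near Ccdc130 ranked 201, 251 and 359 without dox and 3942, 3147 and 8634 with it, a difference of −1.59 (SE 0.26, adjusted p = 0.061, with the block 3.76e-07). The one in Sema5a, which encodes a semaphorin guidance protein, ranked 962, 1152 and 3101 without dox and 9240, 11136 and 13090 with it (difference −1.67, SE 0.29, block adjusted p = 1.56e-06). The one near Gcnt3 ranked 843, 2034 and 4412 without dox and 12316, 12209 and 13528 with it (difference −1.72). All 3 ranked several times lower with dox, and a peak in every list was required for a region to be tested. Before any correction for depth, the Ccdc130 summit had 151, 96 and 86 fragments with dox and 104, 64 and 161 without. The Sema5a summit had 71, 38 and 41 against 59, 36 and 80, and that of Gcnt3 had 59, 38 and 40 against 65, 32 and 73. Their falls are thus in rank relative to other regions, and recovered fragments did not fall in every pair. The other lower regions lay near Cops8, Mtss1, Ly96, Ifi203, Rai14, Mdm1 and Cnbd1, with differences from −2.07 (Cops8) to −1.35 (Rai14). Rai14 was the only one of the 10 lower regions with CAGCTG at its summit, and none held CAGGTG. AP-1 sites lay at 3 of the 10 lower regions, near Ccdc130, Sema5a and Ly96, and at 3 of the 10 higher ones, near Lamtor5, Syf2 and Zfp661.

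**Figure D2:**
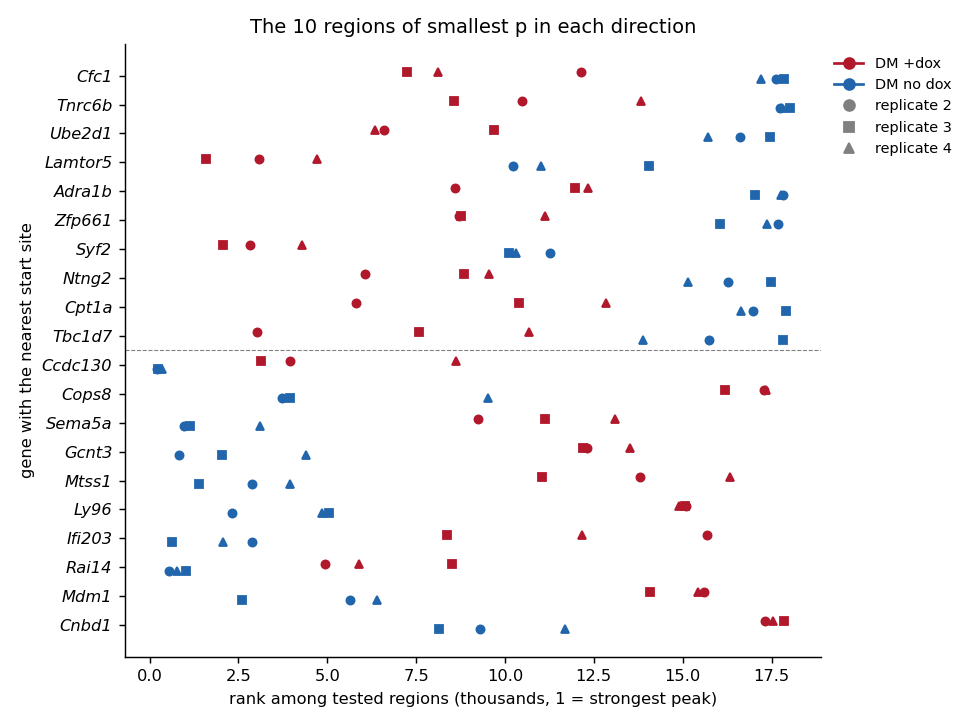
Rank of each of 20 regions among 18106 tested regions in units of 1000 (horizontal axis, 1 is the strongest peak) in the 3 DM +dox (red) and 3 DM no dox libraries (blue), with marker shape for the replicate number and the dashed line between higher (above) and lower regions (below). In every row the red and blue points are apart, as for Ccdc130 with 201 to 359 without dox and 3147 to 8634 with it. The choice by smallest p favours such rows.

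Several genes had more than 1 called region near them. Of 254 genes with a higher region, 8 had 2 or more, among them Runx1, which encodes a transcription factor of blood and muscle, Foxo6, Gse1, Adra1b and Lsm6. The Runx1 regions, 104 and 181 kb from its start site, ranked 840, 1490 and 5315 and 380, 1447 and 678 with dox, and 5101, 8020 and 9482 and 1782, 5794 and 2016 without. Both held CAGGTG and the TEAD site M-CAT, the groups overlapped at the nearer one only, and 2 of the 13 tested regions assigned to Runx1 were called. Foxo6 had a called region of each direction. Of 352 genes with a lower region, 26 had 2 or more, and Gsdmc had 3 of its 6 tested regions called lower, each with an AP-1 site and 291 to 748 kb from the start site. Sema5a, Gcnt3, Cops8 and Abcc12 had 2 each and no higher region.

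Regions with MyoD1-type E-boxes ranked higher with dox, and those with other E-boxes mostly did not. For each library the motif score is the mean normal score of distal regions (over 1 kb from a start site, 9437 regions) with a motif within 100 bp of the summit on either strand, minus that of distal regions without it. CAGGTG, present at 786 distal regions (8.33%), scored 0.18, 0.17 and 0.10 with dox and −0.04, −0.09 and −0.12 without. All +dox libraries lay above all no dox libraries, by 0.23 on average (SE 0.03, 95% interval 0.15 to 0.32, limma adjusted p = 0.0209), with differences of 0.22, 0.26 and 0.22 in the 3 pairs. CAGGTG was the only 1 of 30 motifs (3.33%) to pass the threshold without the block, and 5 had an unadjusted p under 0.05. CAGCTG, at 2293 distal regions (24.3%), scored 0.26, 0.19 and 0.27 with dox and 0.08, 0.01 and 0.12 without. The groups did not overlap here either, but the difference of 0.17 (SE 0.04, interval 0.07 to 0.27) had an adjusted p of 0.0868, and it passed with the block (limma adjusted p = 0.00446 for both motifs). The exact permutation p of each was 0.1, the smallest that 3 against 3 libraries can give. The CAGGTG call was lost when ranks were taken within bins of GC content, in lists of equal length, over promoters and distal regions together, with all 8 DM libraries, or without any 1 library other than DM +dox replicate 4. Its score difference ran from 0.14 to 0.28 over these alternatives.

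The other E-box hexamers set these values in context. The differences were 0.02 for CATCTG, 0.01 for CAAATG, −0.01 for CAACTG, −0.02 for CAATTG and 0.04 for CACGTG, the hexamer of Myc-type factors, and none of these passed with the block. CAAGTG rose by 0.05, CACATG fell by 0.06 and CATATG fell by 0.10, each with the block only. In all, 12 of 30 motifs (40%) passed with the block, 7 higher and 5 lower. Higher were also the CTCF core (0.24), the cAMP response element CRE (0.14), the SRF CArG box (0.13), a site of contractile and cytoskeletal genes, and M-CAT, the TEAD site CATTCC (0.09). Lower were also the PBX site (−0.08), the C/EBP site (−0.08) and the AP-1 site (−0.06). The groups overlapped for the CTCF core, M-CAT, the PBX site and the C/EBP site. The CTCF core, at 149 distal regions, differed about as much as CAGGTG but had a limma adjusted p of 0.305 without the block. The AP-1 site, at 44.8% of distal regions, scored 0.06, 0.21 and 0.08 with dox and 0.14, 0.25 and 0.14 without, so the groups overlap and the difference shows only within pairs. The MEF2 box lay at 49 distal regions and differed by 0.13, within its error (block adjusted p = 0.191, limma).

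**Figure D3:**
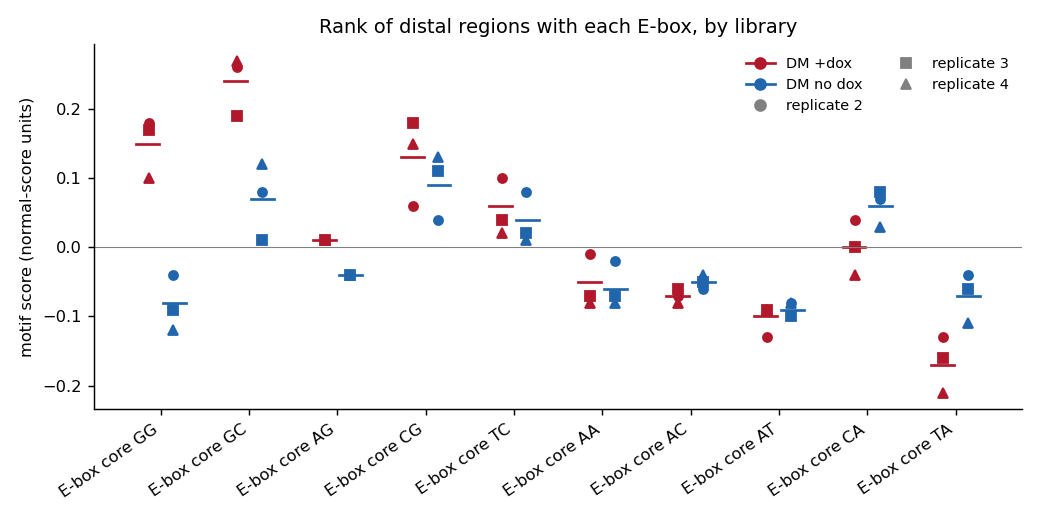
Motif score in normal-score units (vertical axis) for the 10 E-box hexamers, named by the 2 central bases (core GG is CAGGTG, core GC is CAGCTG), in DM +dox (red) and DM no dox libraries (blue), with marker shape for the replicate number and a line at each group mean. The groups are furthest apart for core GG (0.15 against −0.08) and core GC (0.24 against 0.07).

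The motifs were also read as shares of the called regions. These regions were chosen by the same rank differences that the motif scores average, so the shares are not separate evidence. CAGCTG lay at 47.1% of the 206 distal regions called higher with the block, at 14.5% of the 344 called lower and at 24.3% of all distal regions. CAGGTG lay at 28.2%, 4.07% and 8.33% in the same order, and either hexamer at 64.1%, 18.3% and 30.4%. The AP-1 site had the opposite order, with 33.5% of higher, 47.1% of lower and 44.8% of all distal regions. M-CAT was at 26.7% of higher, 16.9% of lower and 21.6% of all, and CACATG at 15.5%, 21.8% and 16.3%. The RUNX site TGTGGT lay at 35.9%, 33.1% and 32% of the same sets.

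The difference was larger with more E-boxes at the summit. Distal regions with neither CAGCTG nor CAGGTG (6569) had a mean difference of −0.06, and 47.1% of them lay above 0. With 1 CAGCTG alone (1772 regions) it was 0.08, with 1 CAGGTG alone (558) 0.16, with 2 CAGCTG (279) 0.25 and with 1 of each (168) 0.30. The 23 regions with 2 CAGCTG and 1 CAGGTG had a mean of 0.56, with 0.55, 0.68 and 0.46 in the 3 pairs, and 82.6% of them lay above 0. In each pair of equal number the order from no E-box to 1 CAGCTG, 1 CAGGTG and then 2 CAGCTG was the same. A neighbouring TEAD site went with a further difference, since regions with an E-box and M-CAT (614) had a mean of 0.21 and those with an E-box but no M-CAT (2254) 0.12. Regions with an E-box and an AP-1 site (1214) had 0.09, against 0.17 for an E-box without one (1654). Without an E-box the means were 0.01 with M-CAT, −0.08 without it, −0.08 with an AP-1 site and −0.04 without it. These groupings were made after the motif scores were known and carry no test.

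**Figure D4:**
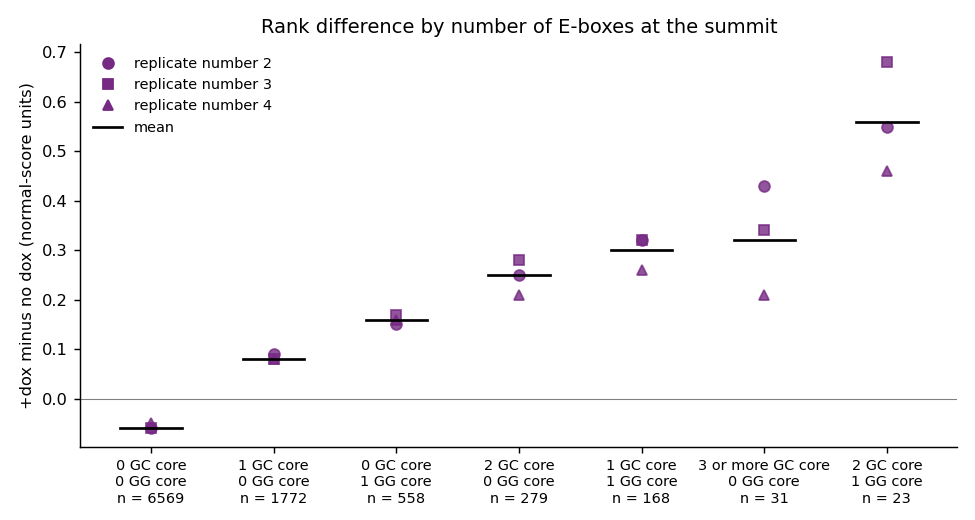
Mean difference in normal score between DM +dox and DM no dox (vertical axis) for distal regions grouped by their number of CAGCTG (GC core) and CAGGTG (GG core) hexamers within 100 bp of the summit, one marker per replicate number and a line at the mean. The means run from −0.06 without either hexamer to 0.56 with 2 GC cores and 1 GG core, where only 23 regions contribute.

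The E-box content of the strongest peaks differed in the same way when each list was read on its own, without joining regions. Among distal peaks of the 5000 strongest of a list, CAGGTG lay at 9.56% to 11.1% with dox and at 7.2% to 8.18% without, and CAGCTG at 30.7% to 32.8% and 25% to 28.9%. Neither pair of ranges overlaps. For ranks from 10001 to 15000 the CAGGTG shares were 9.47% to 10.8% with dox and 7.83% to 9.1% without, and the CAGCTG shares, at 23.6% to 27.7% and 21.3% to 25%, overlapped. In proliferating cells the top 5000 held CAGGTG at 5.66% to 6.01% of distal peaks with dox and 5.25% to 6.56% without, which overlap, and CAGCTG at 22.3% to 25.2% and 20.1% to 22.9%, which also overlap.

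**Figure D5:**
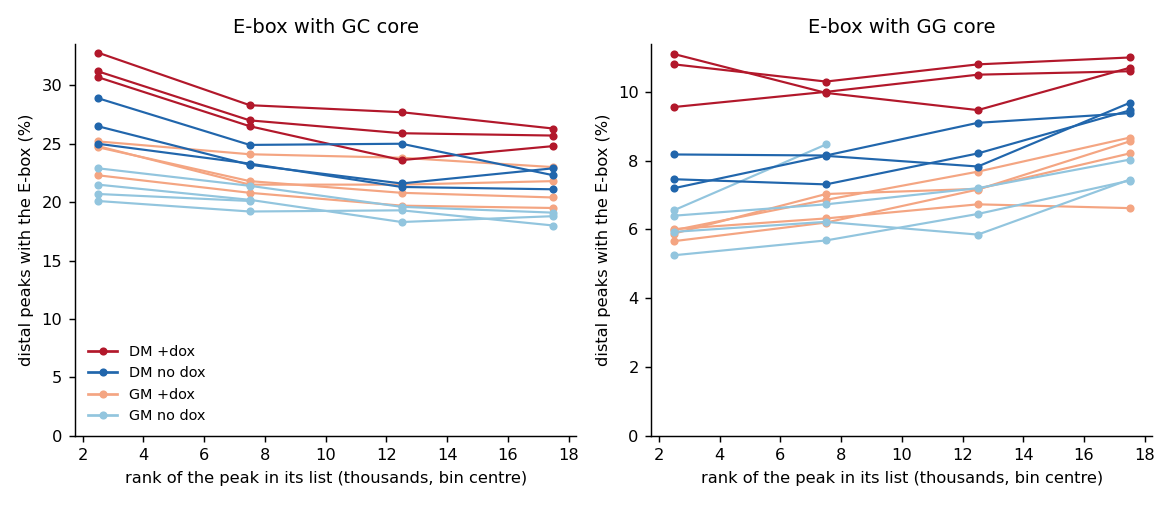
Percent of distal peaks with CAGCTG (left panel, GC core) or CAGGTG (right panel, GG core) within 100 bp of the summit in successive bins of 5000 ranks of each list, with the horizontal axis giving the centre of the bin in units of 1000 and one line per library of the 4 groups, shorter where a list ends. DM +dox lines lie above DM no dox lines in the first bin of both panels, and GM lines of both treatments lie together at 5.25% to 6.56% in the first bin of the right panel.

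The motif scores were also read in GM, where none of the 30 motifs passed without the block and 4 passed with it (CAGCTG, M-CAT and the MEF2 box higher, and the NFI site, at only 2 regions, lower). Over 5545 distal regions with a peak in all 14 libraries that the study kept, the CAGCTG score of GM +dox exceeded that of GM no dox by 0.15 (exact permutation p = 0.0286, limma adjusted p = 0.104, with the block 0.0141). The CAGGTG score was −0.22 with dox and −0.21 without, a difference of −0.00 (SE 0.05, limma adjusted p = 0.939). In these regions CAGGTG scored 0.21, 0.20 and 0.09 in DM +dox and −0.02, −0.02 and −0.08 in DM no dox, with the +dox libraries above the others. The dox difference in DM exceeded that in GM by 0.21 (SE 0.07), but over 30 motifs this interaction did not pass (limma adjusted p = 0.394, with the block 0.0517). Over the alternatives its limma adjusted p ran from 0.0103, without GM no dox replicate 4, to 0.981, when replicate 4 of DM no dox was left out. The CAGCTG difference was the same in both media to 2 decimals (interaction 0.00, SE 0.05, limma adjusted p = 0.994). By region, the interaction of dox and medium was called at 0 of 11046 regions (0%) by limma with or without the block, with 191 regions (1.73%) and 619 regions at an unadjusted p under 0.05.

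The regions called in DM were then read in the GM libraries, whose ranks had no part in the calls. Only the 124 higher and 258 lower regions with a peak in all 14 libraries could be read, so presence in the GM lists limited the set. The mean normal score of the higher minus that of the lower regions was −0.10, 0.01, 0.45 and 0.78 in GM +dox replicates 1 to 4 and −0.74, −0.60, −0.56 and −0.07 in GM no dox replicates 1 to 4. The group means were 0.28 ± 0.41 and −0.49 ± 0.29 (SD, 4 libraries each), and the ranges overlapped only through the replicates 1 with dox and 4 without. The difference of 0.78 had a two-sided exact permutation p of 0.0571. With distal regions only it was 0.83 (exact permutation p = 0.0286). Without 1 GM library it ran from 0.61 to 0.92, with an exact permutation p from 0.0286, without GM no dox replicate 4, to 0.114. Paired by replicate number the exact permutation p was 0.125, the smallest that 4 pairs can give. Within replicate numbers 1 and 2 the difference was 0.63, and within numbers 3 and 4 it was 0.93. Taken alone, the regions higher in DM scored 0.05 ± 0.03 in GM +dox and −0.27 ± 0.10 in GM no dox (exact permutation p = 0.0286), and the regions lower in DM scored −0.23 ± 0.40 and 0.22 ± 0.32 (exact permutation p = 0.143).

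Peak width gave no calls with all 6 libraries. With limma on the log2 covered width, 0 of 18106 regions (0%) were called, and 911 (5.03%) had an unadjusted p under 0.05. With the block 0 regions (0%) were again called, with 1284 (7.09%) at an unadjusted p under 0.05. Leaving out a replicate number from the fit with the block changed this, to 45 wider and 30 narrower regions without number 2 and to 100 and 58 without number 4. At the 262 regions called higher by rank the log2 width relative to the library median was −0.01, −0.03 and −0.08 with dox and −0.22, −0.36 and −0.26 without. At the 379 lower regions it was −0.25, −0.26 and −0.36 with dox and −0.00, 0.15 and −0.13 without. The widths come from the same peaks as the ranks and are not independent of them.

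Presence was compared in lists of equal length first. Cut to 14710 peaks, the 6 lists joined into 21507 regions. Of these, 176 (0.818%) had a peak in all 3 +dox and no no dox list, and 169 (0.786%) the reverse. Such regions are all-or-none within the cut lists only. The region 0.427 kb from Ankrd2, which encodes a muscle ankyrin repeat protein, ranked 6296, 6153 and 6178 in the full +dox lists. In the full no dox lists it had no peak in replicates 2 and 3 and ranked 19234 in replicate 4. It held CAGGTG, as did regions in introns of Med16, Lep and Arhgef18. Ranks in the full lists were 5557, 5900 and 5392 for Med16 and 3660, 8028 and 9505 for Lep with dox, and the no dox lists had no peak in replicate 3 at either. Among the strongest lower regions, that near Mdm1 ranked 5643, 2619 and 6607 without dox and 21074, 17110 and 21258 with it, and that near Hmga2 ranked 4919, 2505 and 7511 without dox and 16900, 17833 and 26900 with it. The lower regions named by this rule, near Ly96, Mdm1, Hmga2, Spire1, Cops8 and Dynap, all kept a peak in every full +dox list.

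The sets also differed in motifs and location, as a description with no test. CAGCTG lay at 43.5% of distal higher and 18.6% of distal lower regions, against 27.8% of distal regions present in all 6 cut lists, and CAGGTG at 18.1%, 2.76% and 8.25%. Promoters made up 21.6%, 14.2% and 60.1%. In the GM lists of the same length, which did not choose these regions, 43.2% to 52.3% of the higher regions had a peak with dox and 21% to 34.7% without. The lower regions had one in 24.9% to 51.5% with dox and 46.2% to 63.3% without. As fractions, the share of higher minus that of lower regions was greater by 0.34 in GM +dox than in GM no dox libraries (exact permutation p = 0.0286).

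In the full lists, whose lengths differ, 3428 of 64142 regions (5.34%) were found in all +dox and no no dox list and 9 (0.014%) in the reverse. The higher regions were weak peaks, with median ranks of 33384, 33898 and 35262 in the +dox lists, and 0.642% to 1.4% of them were among the 14710 strongest. Their part due to longer and deeper +dox lists was not tested. Of their 3007 distal regions 18.7% held CAGGTG, 28.1% CAGCTG, 32.1% an AP-1 site and 4.52% a CTCF core, against 8.33%, 24.3%, 44.8% and 1.58% of distal regions found in all 6 lists. The 9 lower regions lay nearest Spag16, Adgrg6, Akap7, Mlh3, Rnf144b, Ndst4, Rflna, Sfswap and Tln2, the talin gene expressed in muscle, and none of their distal members held CAGCTG or CAGGTG.

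Genes of the contractile apparatus had a larger share of regions listed with dox only than all regions did (5.34%), most of them weak peaks. So had AP-1 family (10 of 125 regions, 8%), acetylcholine receptor and synapse (4 of 54, 7.41%, all nearest Utrn), fusion (11 of 167, 6.59%), other adhesion (49 of 780, 6.28%) and cell cycle exit genes (13 of 218, 5.96%). Growth factor and matrix genes (32 of 605, 5.29%), MyoD antagonists and Notch genes (12 of 257, 4.67%), myogenic factors (9 of 241, 3.73%) and the study's adhesion genes (1 of 29, 3.45%) lay below that share. Most of these counts are small, and the shares carry no test. The full lists were longer with dox. Of 225 regions assigned to 72 sarcomere and contraction genes, 24 (10.7%) were found with dox only in the full lists, beside 5.34% of all regions, and 0 were found without dox only. They included 3 regions near Casq2, the calsequestrin that buffers calcium in the sarcoplasmic reticulum, 2 near Myoz2, which encodes a Z-disc protein, and 1 each near Ckm (muscle creatine kinase), Tnnc2 (fast troponin C), Tnnt2 (cardiac troponin T), Cacna1s (the calcium channel of excitation-contraction coupling) and Atp2a1 (the calcium pump of fast fibres). Their ranks in the +dox lists were low in most cases, such as 43601, 21362 and 25151 for Ckm and 23724, 23346 and 14752 for Cacna1s. In lists of equal length 3 of 51 regions of these genes were all-or-none higher, near Ankrd2, Lmod2 (a thin filament protein) and Myl3 (a myosin light chain), beside 0.818% of all regions, and 0 were lower. Among the 40 tested regions of this list 0 were called higher with the block, beside 1.45% of all. The 2 called lower (5%, beside 2.09%) were assigned to Mylk2 and Myom2, and the Myom2 region lay 674 kb from its start site. The median difference was 0.09, beside 0.02 over all tested regions. Mylk2, the skeletal myosin light chain kinase, ranked 4571, 8319 and 11042 with dox and 433, 5336 and 2907 without at a region 7.05 kb from its start site.

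Among 61 tested regions of myogenic transcription factors 1 was called higher (1.64%, beside 1.45% of all) and 2 lower (3.28%, beside 2.09%), with a median difference of 0.06. The higher one lay in an intron of Tead1, the factor that binds M-CAT sites, held CAGCTG and ranked 12210, 5494 and 8239 with dox and 17087, 15768 and 10443 without (difference 1.03, block adjusted p = 0.0285, groups overlapping). Of the lower ones, that of Eya1 lay 174 kb from its start site and ranked 2788, 3020 and 8266 with dox and 731, 692 and 1610 without. The other lay in an intron of Nfix, a factor of the fetal muscle programme (17187, 14617 and 16939 with dox against 11023, 8011 and 13322). Another Nfix region, 0.051 kb from a start site of the gene, went the other way and was all-or-none higher in lists of equal length, with full-list ranks of 14387, 8878 and 13814 with dox, 20556 and 14976 in DM no dox replicates 2 and 4 and no peak in replicate 3. In the full lists 9 of 241 regions of this list (3.73%) were found with dox only, near Myf5, Mef2a, Mef2c, Pitx3, Tcf4, Tcf12 and Tead1, a share below the background of 5.34%. The Myf5 region, in its first exon, ranked 49727, 44150 and 41581, near the end of the lists.

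Of 68 tested regions of MyoD antagonists and Notch genes, which restrain differentiation, 1 was called higher (1.47%, beside 1.45% of all) and 3 lower (4.41%, beside 2.09%). Their median difference was −0.11, beside 0.02. The lower regions lay near Twist1, a helix-loop-helix factor that opposes MyoD1, and the receptors Notch1 and Notch3. That of Notch1 ranked 17290, 12928 and 14217 with dox and 9758, 6912 and 10966 without and was also all-or-none lower in lists of equal length. The higher region lay in an intron of Notch2, another receptor, and a separate Notch2 intron region with CAGCTG was all-or-none higher in equal lists, with full-list ranks of 6337, 11610 and 14484 with dox, no peak in DM no dox replicate 2, and 16584 and 19042 in replicates 3 and 4. The called regions of these receptors thus lay in both directions.

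Cell adhesion was described by the 5 genes the study expressed and by 58 others. Of the 5, Cdh23 and Cdh15 had 1 tested region each and Cadm4, Itga3 and Mcam had none. The Cdh15 region, in an intron 3.89 kb from the start site of this muscle cadherin, held CAGCTG and ranked 10044, 16995 and 15619 with dox and 15656, 17463 and 17814 without (difference 0.76, SE 0.44, limma adjusted p = 0.765, with the block 0.248). The Cdh23 region differed by −0.30 (block adjusted p = 0.739, limma). A second Cdh15 region, 12.8 kb from the start site and with CAGGTG, was found with dox only in the full lists, at ranks 30903, 21236 and 26519. Of 223 tested regions of the other adhesion genes 3 were called higher (1.35%, beside 1.45% of all), near Itgb5, Ncam1 and Vcl. The 6 called lower (2.69%, beside 2.09%) lay near Dst, Itgb1, Itgb6, Kirrel3 and Lpp. The region in an intron of the integrin gene Itgb5 ranked 532, 2819 and 1855 with dox and 3196, 6544 and 7472 without. The region near Itgb1, the integrin chain that pairs with most alpha chains in myoblasts, ranked 16979, 17574 and 18030 with dox and 7735, 6286 and 16850 without.

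The remaining lists held 0 to 3 higher and 0 to 4 lower regions each. These counts stand beside 1.45% higher and 2.09% lower over all tested regions and are too small to set a list apart. Of 70 regions of cell cycle exit genes 2 were called higher (2.86%), nearest Btg2 and Gadd45g, and 3 lower (4.29%), nearest Btg1 and Myc. The Gadd45g region lay 116 kb from the start site of that gene, and the Btg1 region of smallest p lay 254 kb from that of Btg1. The Btg2 region ranked 6737, 4732 and 6474 with dox and 13896, 13932 and 10883 without. The Myc region of smallest p, in the Pvt1 gene and 300 kb from the Myc start site, ranked 3055, 3579 and 5032 with dox and 393, 928 and 2194 without. Of 170 growth factor and matrix regions 3 were higher (1.76%), nearest Tgfb1, Tgfb2 and Col1a1, and 4 lower (2.35%), nearest Timp3, Inhba, Fgf2 and Lox. The Inhba region lay 104 kb from its start site. The Tgfb1 region lay 2.38 kb from its start site and ranked 10538, 8126 and 8260 with dox and 15554, 16860 and 14894 without. Of 38 fusion gene regions 0 were higher and 1 was lower (2.63%), in a coding exon of Myof, the membrane fusion protein myoferlin. Of 16 acetylcholine receptor and synapse regions 1 was higher (6.25%), in an intron of Utrn, which encodes utrophin. Of 40 AP-1 family regions 1 was lower (2.5%), in an intron of Bach2.

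At Myod1 itself (chr7:46376474-46379099) the peak in the coding part of exon 1 did not change rank beyond the replicate spread. It ranked 2126, 8220 and 8975 with dox and 7362, 1876 and 6419 without, so the groups overlapped widely (difference −0.19, SE 0.35, limma adjusted p = 0.96, with the block 0.788). It was 585, 591 and 573 bp wide with dox and 544, 586 and 591 bp without. A second peak in the Myod1 coding sequence was absent from the list of DM no dox replicate 2 and was thus not tested. Its full-list ranks were 5600, 17432 and 17868 with dox and 11448 and 12622 in DM no dox replicates 3 and 4. The transgene encodes the same protein, and whether these fragments come from the gene or the transgene cannot be told apart in peak lists. A region between genes 38.8 kb from the Myod1 start site (chr7:46337407-46337854), with an AP-1 site and an M-CAT site, was all-or-none higher in lists of equal length. In the full lists it ranked 12179, 12515 and 12623 with dox and 14865, 18484 and 15571 without, so it had a peak in every library.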

How the data were processed

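ATAC-seq libraries were processed by the authors with nf-core/atacseq against mm10, with blacklisted regions removed and peaks called per library by MACS2. The deposited score, fold enrichment (ratio over background) and −log10 p and q values were used only to rank or filter peaks within a list, and no reads per region were used. The lists hold peaks of q under 0.05. Fragments at a summit and background coverage were recovered from fold enrichment and p, and no depth is otherwise given. Sequence and genes came from GRCm38 and GENCODE M21, and all peaks lay within their chromosomes. Peaks overlapping by 1 bp were merged.

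Normal scores of ranks, log2 widths and motif scores were fitted with limma 3.58.1 in R 4.3.3, Benjamini-Hochberg adjusted, with a mean-variance trend for regions, and called at an adjusted p under 0.05. The main fit has no block. Deviations of same-numbered libraries had r = 0.52, 0.17 and 0.51 for numbers 2, 3 and 4, and −0.50 to 0.11 across numbers. Deviations from a group mean sum to 0, which favours negative values across numbers. The labels do not say what a number shares, so the pairing by number is an assumption. Without the block no region passed, so the called regions described are those of the fit with the replicate block, a choice made after seeing the data. Named regions are the 10 of smallest p per direction, list members with a called region, strong all-or-none regions and genes with several called regions. The 30 motifs, on both strands, were the 10 CANNTG hexamers, TGACTCA or TGAGTCA for AP-1, TGACGTCA for CRE, CATTCC for M-CAT (TEAD), TGTGGT for RUNX, GGGCGG for the GC box, CCGGAA for ETS, CCAAT for NFY, TTGCNNCAA for C/EBP, TGATTNAT for PBX, TGACAG for MEIS, TTCCNGGAA for STAT, TAATTA for homeobox factors and, by name, MEF2, SRF, CTCF, NFI, EBF, NRF1 and hormone response sites. A further motif and a marker gene that were searched are not reported here. Gene lists, motifs and regions were chosen with earlier results of these data known. Scripts were tested on simulated data.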

Additional observations from a re-analysis of the deposited data

How the results depend on the processing

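Without the block, 0 regions were called by rank under every alternative except distal regions ranked alone (2 higher, 13 lower), the replicate block (262 higher, 379 lower) and the block with GC bins (241 higher, 282 lower). With the block, counts of higher and lower regions were 46 and 93 in lists of equal length, 141 and 248 when a peak in 3 lists sufficed, 131 and 249 without the variance trend, 206 and 138 with ranks by fold enrichment, 389 and 831 with summit fragments, 0 and 0 with all 8 DM libraries (1139 regions tested), 0 and 0 with no block, 153 and 236 without replicate number 2, 259 and 246 without number 3, and 101 and 164 without number 4. The higher share of calls was 40.9%, against 59.9% by fold enrichment. All-or-none counts in lists of equal length were 87 higher and 93 lower with lists cut to 50% of their length, 87 and 0 with all 8 libraries, and 254 to 395 higher and 256 to 494 lower without 1 library, highest without DM +dox replicate 2 (higher) and DM no dox replicate 4 (lower), where fewer lists have to meet the condition. In full lists they were 191 and 0 with all 8 libraries, 1 lower at a stricter q, 29 lower with summit windows, and 3633 to 10250 higher and 14 to 59 lower without 1 library, with 10250 without DM no dox replicate 4. Of 30 motif scores, 3 were called with ranks by fold enrichment, 12 with the replicate block, 0 in lists of equal length, over all tested regions, within GC bins or with all 8 libraries, and 0 to 1 without 1 library. The GM response at regions called in DM was 0.83 with distal regions, 0.34 as presence of all-or-none regions and 0.61 to 0.92 without 1 library. Other calls that the block changed are given in the report. Of 314 values of the 20 named regions under alternatives, 283 stayed short of the threshold like the main value, 31 passed it, and 0 reversed. The cause of these changes was not tested, except that fewer regions have a peak in 8 lists. Counts with no test have no blocked fit. The lists' unequal lengths limit presence in full lists, and 3 libraries a group limit exact tests to a p of 0.1.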

Other observations

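The bases next to the E-boxes were read over distal regions tested in DM, each class with the hexamer once. CAGGTG was read in the strand that holds it. CAGCTG, the same on both strands, was read in the strand that gives the first octamer in alphabetical order. Classes were described after their values were seen. CAGCTG followed by A went with small differences in normal score between DM +dox and DM no dox: ACAGCTGA had 0.03 (164 regions), CCAGCTGA 0.02 (148), TCAGCTGA −0.01 (59) and GCAGCTGA −0.03 (161). The other classes ran from 0.10 for ACAGCTGT, CCAGCTGG and GCAGCTGC to 0.14 for ACAGCTGG (243 regions). For CAGGTG the highest means were 0.53 for GCAGGTGC (30 regions, 0.47, 0.60 and 0.53 in the 3 pairs), 0.49 for ACAGGTGC (24) and 0.39 for ACAGGTGT (23), and the lowest were −0.01 for CCAGGTGT (25) and TCAGGTGG (41).

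In the left-out replicate 1 of each DM group, the 1287 strongest peaks, the whole of the shorter list, held CAGCTG at 32.5% of 652 distal peaks with dox (95% Wilson interval 29% to 36.2%) and at 28.6% of 521 without (24.9% to 32.6%). CAGGTG lay at 10.9% (8.72% to 13.5%) and 9.79% (7.52% to 12.6%). The intervals overlap in both cases and cover counting error only.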
